A study of Boehmeria nivea with 12 samples.

Results

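Untreated stems of 2 ramie cultivars were compared, Zhongzhu No 2 (Z2) against Huazhu No 4 (H4), in 6 of the 12 libraries of the study: Z2CK1, Z2CK2 and Z2CK3 against H4CK1, H4CK2 and H4CK3. The libraries were taken by their labels. Every untreated library came from stems of greenhouse-grown mother plants that were given neither water culture nor any other agent. Each was a biological replicate that pooled several plants, so variation between single plants was not measured. The remaining 6 libraries came from stems of the same cultivars kept in tap water (Z2T and H4T, 3 each), and served here mainly to read unigenes chosen in the untreated stems. H4T also helped to choose the sets that compare single libraries, and water-cultured libraries entered an interaction and some alternative fits. The study's methods give the same duration of water culture for all 6 water-cultured libraries. The labels spell the second cultivar in 2 ways, as Huangzhu No 4 and as Huazhu no 4, and give every library the same stage, so they hold no further difference between the groups.

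Ramie is a perennial grown for the long bast fibers of its stem, and it is multiplied from stem cuttings, which have to form adventitious roots from tissue that is not root. An untreated stem holds the state from which that response starts, so a difference between cultivars at this point is a difference that precedes rooting. What was measured was the level of each unigene, a set of transcripts that the Trinity assembler builds from reads without a genome. The table gave levels as FPKM, fragments scaled by unigene length and by library size, for 66881 unigenes, each under a Trinity identifier that no source used here pairs with a gene. For this reason no gene function is given, the label "stem" could not be checked against marker genes, no sequence is shown, and only 4 unigenes are named. In a bulk stem, fewer cells of a type and less RNA per cell cannot be told apart.

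The library labelled H4CK1 stood apart from its group, so results are given with all 6 libraries and again without it. The 6 libraries summed to between 914642 and 1053150 FPKM, and the table holds no counts. Read totals per library are listed in the study for mapping to a genome, but the reads assigned to each unigene are not known. The filter on low values kept the 25904 unigenes that reached 1 FPKM in 2 or more of the 6 libraries, and across these Pearson's r on log2(FPKM + 1) was 0.919 to 0.937 within Z2CK and 0.952 between H4CK2 and H4CK3. H4CK1 had an r of 0.818 and 0.822 with H4CK2 and H4CK3, of 0.873 to 0.902 with Z2CK, and of 0.961 and 0.968 with the water-cultured libraries Z2T3 and Z2T2. Of the water-cultured libraries, the one labelled Z2T1 was the closest to H4CK2 and H4CK3, at an r of 0.961 to 0.965. These values are across unigenes, which are not independent replicates. Of the 6 untreated libraries H4CK1 also held the most unigenes at an FPKM of at least 1, with 32087 against 22832 to 23608 in the other 5. It alone had 8750 unigenes at that level that were listed at 0 in those 5, which carried 6.69% of its FPKM, whereas each of the other 5 had between 571 and 926 such unigenes. Of the 8750, 2558 were above 0 in Z2T2 and 1417 in Z2T3, against 67 in Z2T1 and 439 to 587 in H4T.

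To see which cultivar the unigenes of each H4CK library belonged to, 2 sets were chosen without any H4CK or Z2T library. The first set was the 331 unigenes that reached 1 FPKM in every Z2CK library and were listed at 0 in every H4T library (Z2-distinct), and the second was the 403 unigenes that reached 1 FPKM in every H4T library and were listed at 0 in every Z2CK library (H4-distinct). Of the Z2-distinct unigenes, 285 (86.1%) were above 0 in the library labelled H4CK1, against 40 (12.1%) in H4CK2 and 50 (15.1%) in H4CK3. Of the H4-distinct unigenes, 124 (30.8%) were above 0 in H4CK1, against 275 (68.2%) in H4CK2 and 290 (72.0%) in H4CK3. Over all 66881 unigenes listed, 42401 were above 0 in H4CK1, 31878 in H4CK2 and 31450 in H4CK3. H4CK1 therefore held the Z2-distinct set at the share of Z2T2 (87.6%) and Z2T3 (82.5%), and H4CK2 and H4CK3 at about that of Z2T1 (12.1%). The choice also contrasts untreated with water-cultured stems, so the sets do not separate cultivar from water culture by themselves. All labels were kept as deposited, and no library was moved to another group. Whether the labels of H4CK1 and Z2T1 were exchanged cannot be told from the table, and every Z2CK minus H4CK or Z2T minus H4T value that includes 1 of these libraries depends on the deposited labels.

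**Figure D1:**
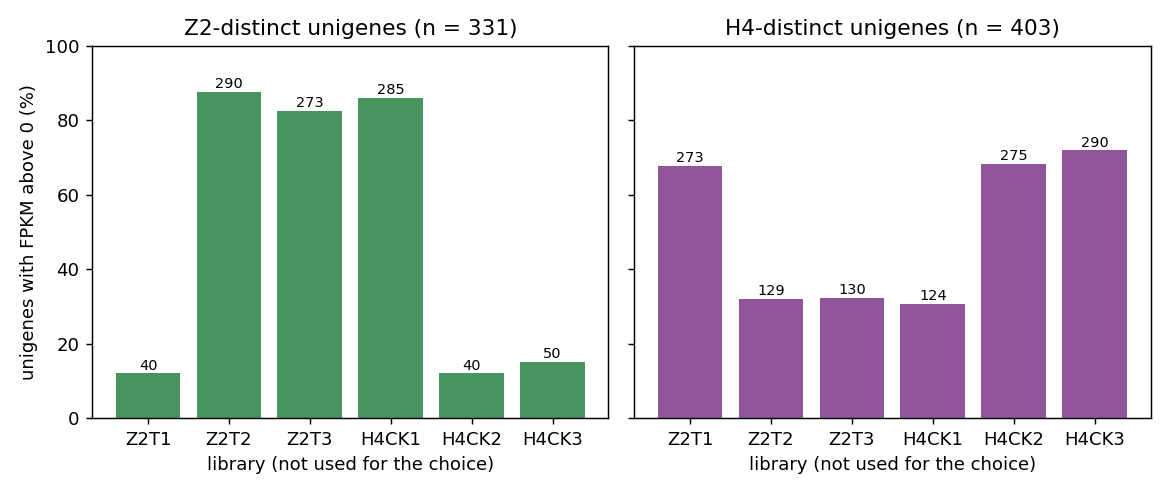
Share of Z2-distinct unigenes (left, n = 331) and H4-distinct unigenes (right, n = 403) with an FPKM above 0 in the 6 libraries not used to choose them; the y axis is the percentage of the set and the number above each bar is its count. H4CK1 stands with Z2T2 and Z2T3 in both panels (285 Z2-distinct unigenes, against 40 and 50 in H4CK2 and H4CK3), and Z2T1 stands with H4CK2 and H4CK3.

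In order to find unigenes that differed between the cultivars, Z2CK was compared with H4CK by limma on log2(FPKM + 1). On this scale the differences of unigenes with low FPKM come out too small. A unigene was called at a Benjamini-Hochberg adjusted p under 0.05 with an absolute log2 difference of at least 1. With all 6 libraries, 6 of 25904 unigenes were called higher in Z2CK (0.0232%) and 2 lower (0.00772%), while 3056 (11.8%) had an unadjusted p under 0.05. Without H4CK1, 1240 of 24700 were called higher (5.02%) and 1052 lower (4.26%), with 7171 (29.0%) at an unadjusted p under 0.05. All 8 unigenes of the 6-library fit were also called in the same direction without H4CK1. Leaving out any other single library from the 6 gave 0 unigenes called higher, and 0 called lower except 2 without Z2CK2, with 1778 to 2397 at an unadjusted p under 0.05. The larger counts in turn rested on having both H4CK2 and H4CK3. With H4CK1 and H4CK2 left out 106 unigenes were higher and 7 lower, with H4CK1 and H4CK3 left out 233 and 36, and with H4CK1 and Z2CK2 left out 782 and 599. The median SD between libraries of a group was 0.27 on the log2 scale in Z2CK, 0.41 in H4CK, and 0.18 between H4CK2 and H4CK3. The median standard error of a difference was 0.34 with 6 libraries and 0.26 with 5. The groups did not overlap for 17.9% of the unigenes with all 6 libraries, 61.2% of them higher in Z2CK, and for 49.4% with H4CK1 left out, where 2 libraries are easier to separate from 3.

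**Figure D2:**
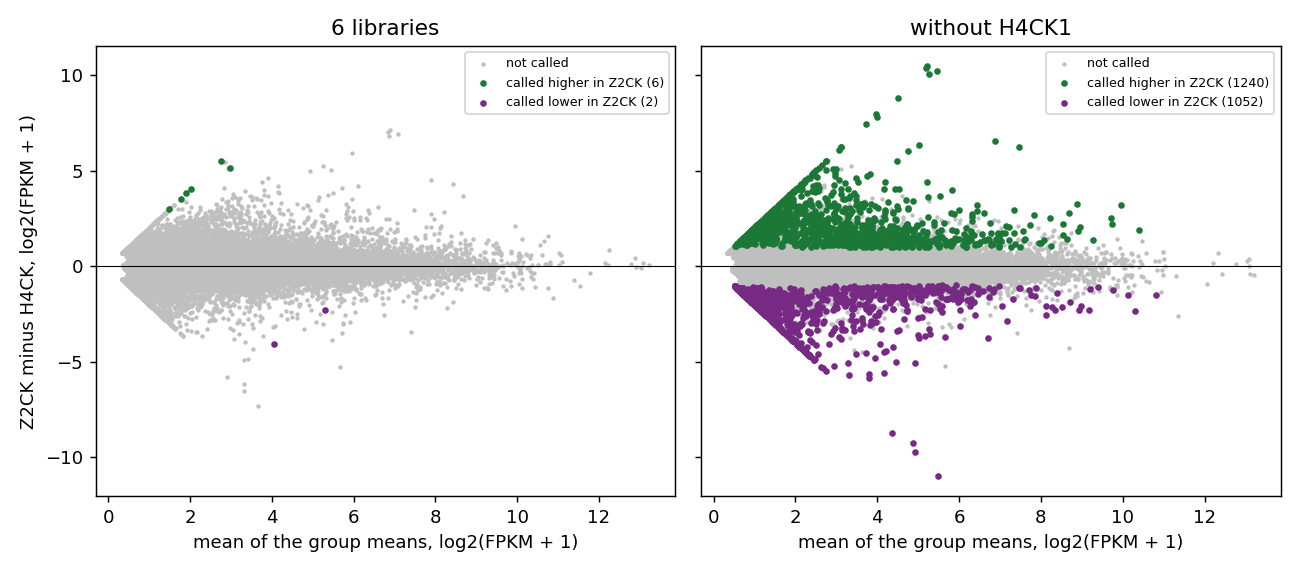
Difference of each unigene tested, Z2CK minus H4CK on log2(FPKM + 1) (y axis), against the mean of the 2 group means on the same scale (x axis), with all 6 libraries (left) and without H4CK1 (right). Green points are called higher in Z2CK (6 and 1240) and purple points lower (2 and 1052); grey points were not called.

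The direction of these differences depended on the scaling and on the value added to the FPKM. Without H4CK1, 54.1% of the called unigenes were higher in Z2CK, but 48.7% after median-of-ratios scaling and 45.8% after quantile normalization. The share was 60.4% with 0.1 added to the FPKM in place of 1. With 6 libraries it was 75% of 8 as deposited, 66.7% of 9 after median-of-ratios scaling, 46.2% of 13 after quantile normalization and 66.7% of 6 with 0.1 added. At any p and an absolute difference of at least 1, 2009 unigenes were higher and 1609 lower in Z2CK with all 6 libraries, and 2978 were higher and 2170 lower without H4CK1. Quantile normalization turned the first pair round, to 1789 higher and 1857 lower, and left 2575 higher and 2530 lower without H4CK1. The median difference over all unigenes was 0.09 without H4CK1 and -0.01 after quantile normalization, so differences near this size carry no direction.

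Where H4CK1 lay was then measured for the unigenes called without it, on a scale that sets the mean of H4CK2 and H4CK3 to 0 and the mean of Z2CK to 1. For the 1240 unigenes called higher in Z2CK the median position of H4CK1 was 0.94 (quartiles 0.66 and 1.15), and 1041 (84.0%) lay closer to Z2CK than to H4CK2 and H4CK3. For the 1052 called lower the median position was 1.00 (quartiles 0.83 and 1.04), with 898 (85.4%) closer to Z2CK. Among the 1052, 428 were listed at 0 in every Z2CK library and reached 1 FPKM in H4CK2 and H4CK3. Such a unigene takes the position 1 exactly when H4CK1 is also listed at 0, so the median partly reflects the floor. The bin of positions from 1.0 held 462 of the 1052. Over all unigenes tested, the share of H4CK1 closer to Z2CK was 62.9% of those higher and 64.7% of those lower in Z2CK. A fit that holds H4CK1 in its labelled group thus sets Z2CK against 1 library that lay with Z2CK and 2 that did not, for most unigenes called without it.

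**Figure D3:**
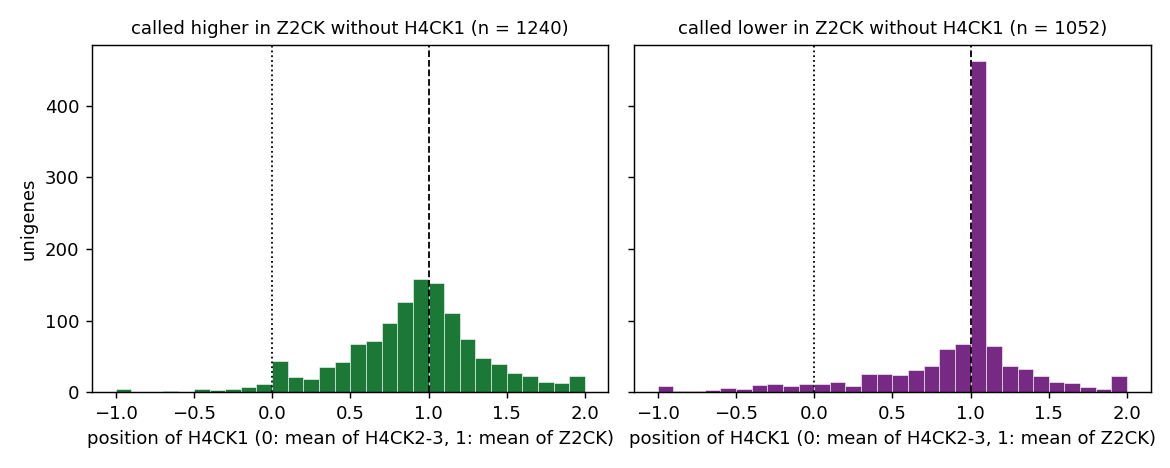
Number of unigenes (y axis) by the position of H4CK1 (x axis, bins of 0.1) for unigenes called higher (left, n = 1240) and lower (right, n = 1052) in Z2CK without H4CK1; positions beyond the ends are counted in the end bins. The dotted line at 0 is the mean of H4CK2 and H4CK3 and the dashed line at 1 the mean of Z2CK, and the medians are 0.94 and 1.00.

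On/off differences were separated from graded ones, since no fold can be given against a group at 0. A unigene was Z2-only when it was listed at 0 in every H4CK library and had an FPKM of at least 1 in 2 or more Z2CK libraries, and H4-only in the reverse case. With all 6 libraries there were 300 Z2-only unigenes (1.16% of those that passed the filter) and 567 H4-only unigenes (2.19%). Few of these held up in each library of their cultivar: 45 Z2-only and 40 H4-only unigenes reached 1 FPKM in each of the 3 libraries, and 5 Z2-only and 2 H4-only unigenes reached 5 FPKM. Leaving out Z2CK1, Z2CK2 or Z2CK3 gave 133, 137 or 120 Z2-only unigenes, and leaving out H4CK2 or H4CK3 gave 98 or 103 H4-only unigenes. In H4CK1, 185 of the 567 H4-only unigenes were above 0, against 514 in H4CK2 and 513 in H4CK3, so that most of them rested on the last 2 libraries. As the table gives no reads per unigene, a listed 0 cannot be told from a level too low for the library to detect.

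Without H4CK1 there were 894 Z2-only unigenes (3.62%) and 446 H4-only unigenes (1.81%). The 894 held all 300 found with 6 libraries and 594 more, which were the unigenes above 0 in H4CK1. The counts of both sets are not on equal terms, since Z2-only asked for 2 of 3 libraries and H4-only for 2 of 2. At 1 FPKM or more in every library of the cultivar, 364 unigenes were Z2-only and 446 H4-only, and with at least 10 there were 44 of each. The sets were mostly of low level, with a median of the mean FPKM of 2.31 for Z2-only unigenes and 3.12 for H4-only ones. They carried 0.721% to 0.894% of the FPKM of a Z2CK library and 0.527% to 0.534% of that of H4CK2 and H4CK3. Among the called unigenes, 316 of 1240 higher in Z2CK were Z2-only and 428 of 1052 lower in Z2CK were H4-only. These were 316 of the 894 Z2-only and 428 of the 446 H4-only unigenes. The on/off choice fixes the direction of such a difference, and for H4-only also a level of at least 1 FPKM in H4CK2 and H4CK3. These calls are thus not separate support for the sets.

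The on/off sets were read in libraries that had not chosen them. Of the 894 Z2-only unigenes, 600 (67.1%) were above 0 in Z2T2 and 584 (65.3%) in Z2T3, against 142 (15.9%), 180 (20.1%) and 173 (19.4%) in H4T1, H4T2 and H4T3. Of the 446 H4-only unigenes, 67 (15.0%) were above 0 in Z2T2 and 49 (11.0%) in Z2T3, against 305 (68.4%), 313 (70.2%) and 298 (66.8%) in the H4T libraries. These shares were alike, Z2T1 aside, but the Z2-only set was chosen on looser terms. Of the 364 Z2-only unigenes with at least 1 FPKM in every Z2CK library, 324 (89.0%) were above 0 in Z2T2 and 313 (86.0%) in Z2T3. All 446 H4-only unigenes met that rule in H4CK2 and H4CK3. The terms were still not equal, since the Z2-only rule covers more libraries, so the shares of the sets cannot be ranked. The library labelled Z2T1 went the other way, with 116 (13.0%) of the 894 Z2-only and 315 (70.6%) of the 446 H4-only unigenes above 0. The left-out library H4CK1 held 594 (66.4%) of the Z2-only and 64 (14.3%) of the H4-only unigenes. Of all 66881 unigenes listed, 42291 were above 0 in Z2T2, 37887 in Z2T3 and 42401 in H4CK1. The count was 30586 in Z2T1 and 32751 to 34107 in the H4T libraries. Z2T2, Z2T3 and H4CK1 thus listed more unigenes above 0 to begin with, which the Z2-only shares do not allow for. The Z2-only set chosen with all 6 libraries gave lower shares: 101 (33.7%) and 96 (32.0%) of the 300 Z2-only unigenes were above 0 in Z2T2 and Z2T3, and 33 (11.0%) to 47 (15.7%) in the H4T libraries. Of the 567 H4-only unigenes of that choice, 107 (18.9%) and 84 (14.8%) were above 0 in Z2T2 and Z2T3, against 339 (59.8%) to 358 (63.1%) in the H4T libraries, and 350 (61.7%) in the library labelled Z2T1.

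**Figure D4:**
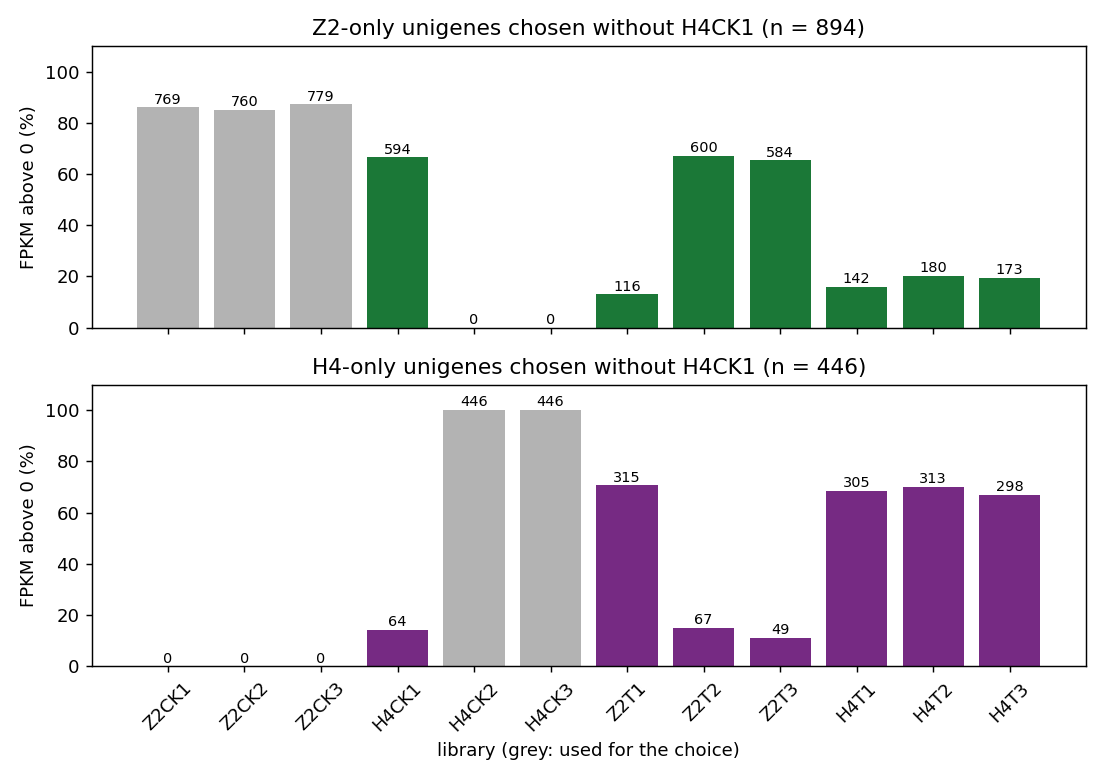
Percentage of the Z2-only unigenes (top, n = 894) and H4-only unigenes (bottom, n = 446), chosen without H4CK1, with an FPKM above 0 in each of the 12 libraries; the count stands above each bar and grey bars are the libraries used for the choice. Z2-only unigenes were above 0 for 600 and 584 in Z2T2 and Z2T3 and for 142 to 180 in H4T, and H4CK1 (594) stands with Z2T2 and Z2T3.

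The on/off unigenes of highest level were read in the same way. With all 6 libraries, 3 Z2-only and 0 H4-only unigenes reached 10 FPKM in every library of their cultivar, so the sets of 44 found without H4CK1 are described. The 44 Z2-only unigenes with at least 10 FPKM in every Z2CK library had medians of 19.2, 18.1 and 20.9 FPKM in Z2CK1, Z2CK2 and Z2CK3, and the highest value among them was 1998 FPKM. They were listed at 0 in H4CK2 and H4CK3 by choice, but 41 of 44 were above 0 in H4CK1, where their median was 15.95 FPKM. In water-cultured stems 40 and 41 of them were above 0 in Z2T2 and Z2T3, with medians of 14.7 and 15.0 FPKM, against 5 to 8 in the H4T libraries and 5 in the library labelled Z2T1. The 44 H4-only unigenes of this level had medians of 18.3 and 19.3 FPKM in H4CK2 and H4CK3 and a highest value of 2111 FPKM. Only 4 of these 44 were above 0 in H4CK1, at up to 3.69 FPKM. In water-cultured stems 2 and 3 of the 44 were above 0 in Z2T2 and Z2T3, against 37 to 40 in the H4T libraries and 40 in the library labelled Z2T1.

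Among graded differences, those of unigenes above 0 in at least 1 library of each cultivar, 1 unigene was called higher and 2 lower in Z2CK with all 6 libraries. Without H4CK1, 924 graded unigenes were called higher and 624 lower. The median graded difference was 1.74 for those higher (up to 10.19) and -1.70 for those lower (down to -9.74), with median standard errors of 0.26 and 0.27. Of the 924, 566 lay between 1 and 2, 234 between 2 and 3, and 124 at 3 or more. Of the 624, the size lay between 1 and 2 for 403, between 2 and 3 for 142, and at 3 or more for 79. Most graded differences were therefore under 4-fold on this scale, with a tail of large ones in both directions.

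The graded unigenes were also read in the water-cultured stems, which share no library with the choice. With Z2T2 and Z2T3 against H4T, 845 of the 924 (91.5%) were higher in Z2T and 535 of the 624 (85.7%) lower in Z2T, where over all 24700 unigenes 47.6% were higher and 50.6% lower. The libraries did not overlap, in the same direction, for 731 of the 924 (79.1%, against 23.0% of all unigenes higher without overlap) and for 451 of the 624 (72.3%, against 25.0% lower without overlap). The median difference, Z2T minus H4T, was 1.08 for the unigenes called higher in Z2CK and -0.96 for those called lower. With the library labelled Z2T1 kept in its group, 726 of 924 (78.6%) and 441 of 624 (70.7%) kept their direction, and 121 (13.1%) and 140 (22.4%) did so without overlap, where all unigenes gave 7.03% and 13.6%. Of the 3 graded unigenes called with all 6 libraries, 2 had the same direction in Z2T and H4T and 1 the opposite.

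Of the 8 unigenes called with all 6 libraries, 4 had a mean between 1 and 10 FPKM and 4 between 10 and 100. The share called without H4CK1 was smaller above 10 FPKM. Without H4CK1, 11.6% of the 1865 unigenes with a mean under 1 FPKM were called, 12.4% of the 10184 between 1 and 10, 6.33% of the 11048 between 10 and 100, and 6.80% of the 1603 at 100 or more. The last class held 69 unigenes called higher and 40 lower in Z2CK, with 3 Z2-only and 2 H4-only unigenes. Of the 100 unigenes with the highest mean in Z2CK, 63 were also among the 100 highest of H4CK2 and H4CK3, and 71 were with H4CK1 included. In the union of 137 unigenes without H4CK1, 16 were called higher and 12 lower in Z2CK, and 87 differed by less than 1. Over all 24700 unigenes, 5.02% were called higher and 4.26% lower. Unigenes in the list of only Z2CK or only H4CK entered the union where they are high. Differences in the union were therefore favoured by the choice. With all 6 libraries the union held 129 unigenes, of which 0 were called higher, 0 lower, and 95 differed by less than 1. The 100 highest unigenes of a library took 20.6% ± 2.3 of its FPKM in Z2CK and 21.8% ± 1.9 in H4CK (SD, n = 3 each), a difference within the spread. The exact two-sided permutation test gave p = 0.6 (p = 1.0 adjusted over 2 measures), and 3 against 3 libraries cannot go below 0.1. Without H4CK1 the H4CK mean was 21.8% ± 2.7 (SD, n = 2), and the exact two-sided permutation p was 0.6 (adjusted 0.6, smallest possible 0.2).

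The number of unigenes with an FPKM of at least 1 was 23137, 22986 and 23608 in Z2CK, against 32087, 22832 and 22931 in H4CK. All Z2CK values lay between the lowest and the highest H4CK value, with means of 23244 ± 324 in Z2CK and 25950 ± 5315 in H4CK (SD, n = 3 each, two-sided exact permutation p = 1.0, adjusted 1.0). Without H4CK1 the order turned, and all 3 Z2CK libraries lay above both H4CK libraries, by 362 on average (two-sided exact permutation p = 0.2, adjusted 0.4, where 0.2 is the smallest that 3 against 2 allow). The number of expressed unigenes thus gave no difference between the untreated cultivars that this design could call.

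Trinity identifiers group unigenes that came from 1 assembly graph into a component, and separate copies or alleles of 1 gene can be placed in unigenes of the same component. Another listed unigene of the same component was found for 155 of 300 Z2-only (51.7%) and 349 of 567 H4-only (61.6%) unigenes with all 6 libraries, against 63.8% of all 25904. Without H4CK1 it was found for 540 of 894 Z2-only (60.4%) and 281 of 446 H4-only (63.0%) unigenes, against 63.9% of all 24700. These shares were not tested against each other. In 24 components without H4CK1, a Z2-only and an H4-only unigene stood side by side, 36 Z2-only (4.03%) and 27 H4-only (6.05%) in all. In 17 of these 24 the FPKM summed over the component differed by less than 1 on the log2 scale between Z2CK and H4CK, and the median size of the summed difference was 0.49, while 82.1% of all 17625 components tested differed by less than 1. With all 6 libraries there were 9 such components, 8 of them with a summed difference under 1, as had 88.2% of all 18209 components. Summed over components, 1 was called higher and 1 lower in Z2CK with all 6 libraries, and without H4CK1 699 of 17625 were called higher and 532 lower in Z2CK. Of the 47750 components listed, 1138 held a unigene called higher without H4CK1 and 1002 one called lower, and 59 held both. With all 6 libraries these counts were 6, 2 and 0.

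Of the 4 unigenes named, 2 were higher and 2 lower in Z2CK. TRINITY_DN39176_c1_g1 was the Z2-only unigene with the highest minimum in Z2CK. It had 44.5, 67.2 and 29.0 FPKM in Z2CK1, Z2CK2 and Z2CK3, and was listed at 0 in all 3 H4CK libraries (limma adjusted p = 0.0260 with 6 libraries and 0.00347 without H4CK1). The unigene was chosen by its 0 in H4CK and its level in Z2CK, so these p-values reuse the values that chose it. In water-cultured stems it was listed at 0 in all 3 Z2T libraries, and in H4T it had 12.0 FPKM in H4T1 and 0 in the others, so its on/off difference was not seen there.

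TRINITY_DN41190_c1_g1 was the graded unigene called higher with all 6 libraries. It had 43.2, 64.7 and 35.0 FPKM in Z2CK, against 0.23, 0 and 0.86 FPKM in H4CK1, H4CK2 and H4CK3. The groups did not overlap, and the log2 difference was 5.16 (standard error 0.35, limma adjusted p = 0.0260), and 5.11 without H4CK1 (standard error 0.39, adjusted p = 0.00417). The unigene was chosen because both fits called it and its libraries did not overlap. These p-values and the lack of overlap thus reuse the values that chose it. Its level in water-cultured stems was 0.43, 1.60 and 0.24 FPKM in Z2T and 0 in H4T. Another unigene of its component had 0.5, 0.48 and 0.26 FPKM in Z2CK, against 0.22, 3.83 and 17.55 in H4CK1, H4CK2 and H4CK3. The remaining unigene of the component had at most 1.03 FPKM in these 6 libraries. The difference given is thus that of this unigene and not of its whole component.

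TRINITY_DN38464_c2_g1 was the graded unigene with the larger decrease. It had 3.35, 1.86 and 4.42 FPKM in Z2CK, against 62.5, 58.0 and 79.4 FPKM in H4CK, with all 3 H4CK libraries high and H4CK1 among them. The log2 difference was -4.04 (standard error 0.28, limma adjusted p = 0.0260), and -4.08 without H4CK1 (standard error 0.33, adjusted p = 0.00477). The unigene was chosen by its calls in both fits, its lack of overlap and the size of its difference. These p-values and this size thus reuse the values that chose it. In water-cultured stems it was high in both cultivars, with 109, 72.5 and 51.8 FPKM in Z2T and 41.1, 24.1 and 74.7 FPKM in H4T.

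TRINITY_DN37854_c1_g2 was the H4-only unigene with the highest minimum in H4CK. It was listed at 0 in all 3 Z2CK libraries and had 16.5, 8.02 and 11.2 FPKM in H4CK1, H4CK2 and H4CK3. It did not pass the threshold with all 6 libraries (limma adjusted p = 0.0661) and passed it without H4CK1 (adjusted p = 0.00402). The unigene was chosen by its 0 in Z2CK and its level in H4CK, so these p-values reuse the values that chose it. In water-cultured stems it had 3.76, 5.99 and 7.36 FPKM in Z2T, and 9.73, 0 and 16.8 FPKM in H4T. Another unigene of its component had 2.74, 2.19 and 6.03 FPKM in Z2CK, against 17.43, 2.87 and 0.64 in H4CK1, H4CK2 and H4CK3. The on/off difference is thus that of this unigene and not of its whole component.

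**Figure D5:**
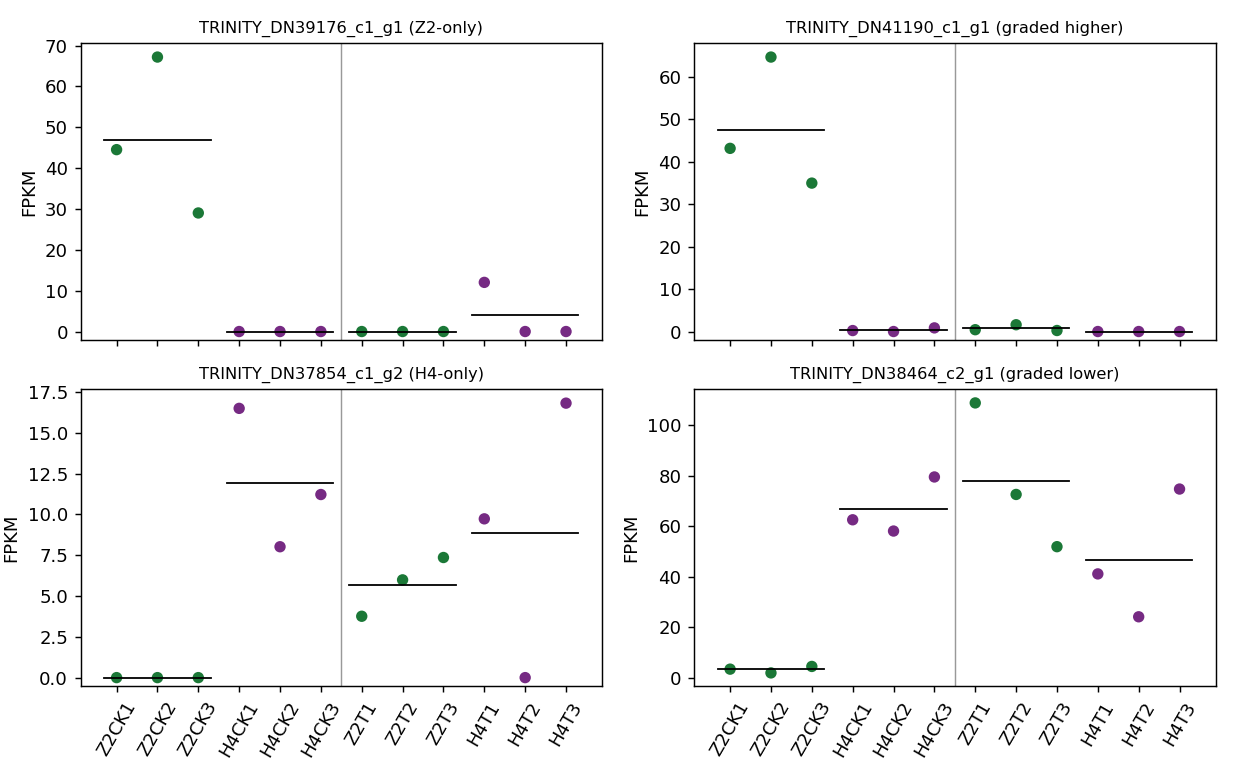
FPKM (y axis) of the 4 named unigenes in each of the 12 libraries (x axis), Z2 in green and H4 in purple, with a horizontal line at each group's mean; untreated libraries stand left of the grey line and water-cultured ones right of it. H4CK1 is on the side of H4CK2 and H4CK3 in all 4 panels, as the choice of these unigenes required, and the low level of TRINITY_DN38464_c2_g1 (1.86 to 4.42 FPKM) is found in Z2CK but not in Z2T (51.8 to 109 FPKM).

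The called unigenes of both fits were last read side by side in water-cultured stems. With all 6 libraries 6 unigenes were called higher in Z2CK, 5 of them Z2-only, and on the means of Z2T2 and Z2T3 against H4T 3 of the 6 were higher and 1 was lower. Without H4CK1, 1136 of the 1240 called higher (91.6%) were also higher there, and 858 of the 1052 called lower (81.6%) were lower. With Z2T1 kept in its group, 4 of the 6 were higher and 1 was lower, and without H4CK1 1015 of the 1240 (81.9%) were higher and 740 of the 1052 (70.3%) lower. Over all unigenes of the 6-library fit, 48.3% were higher and 49.4% lower on Z2T2 and Z2T3. Over all those tested without H4CK1, 47.6% were higher and 50.6% lower. With Z2T1 kept, these shares were 45.5% and 52.6% in the 6-library fit, and 45.2% and 53.4% without H4CK1. The difference between the shares of both fits was not tested.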

How the data were processed

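Libraries were grouped by their titles, and 0 columns of the table were left out. The values are FPKM for Trinity unigenes, deposited by the authors with 2 decimals. For genes, the paper describes HISAT2 mapping to a ramie genome and RSEM, while for the unigenes the assembly and the counting tool are not stated in any source read here. The labels' library protocol lists libraries under names other than those of the samples. FPKM values are not counts, so the DESeq2 test of the study was not used, and the reads assigned to unigenes are not known (the study lists read totals for mapping to the genome). Values were analysed as log2(FPKM + 1) with limma 3.58.1 in R 4.3.3 (variance trend, 6 or 5 libraries, FPKM of 1 or more in at least 2 of them). The code was run on simulated data, where it was required only that planted differences came back near their size. That simulation planted no on/off differences and no library like H4CK1. Counts and exact permutation tests were made in Python 3.11.15 with pandas 2.3.3 and scipy 1.17.1. The study's adjusted p of 0.001 was an alternative with a log2 fold change of 2, as in its methods, or of 1, as in its results, beside other pseudocounts, filters, scalings and samples in the fit. Named unigenes were, in each direction, the on/off unigene with the highest minimum level and the non-overlapping graded unigene called in both fits with the largest difference. The comparison, the exclusion of H4CK1 and the thresholds were chosen with earlier results of these data known. Alternatives of the fit without H4CK1 were added after the data were seen.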

Additional observations from a re-analysis of the deposited data

Results flagged for a closer look

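For 2 of the named unigenes the cultivar difference was not the same in untreated and water-cultured stems, by an interaction in 1 limma fit of all 12 libraries. TRINITY_DN41190_c1_g1 had a log2 difference of 0.73 for Z2T minus H4T, against 5.16 for Z2CK minus H4CK (interaction -4.42, standard error 0.50, adjusted p = 0.0194, and adjusted p = 0.0207 without H4CK1 and Z2T1). TRINITY_DN38464_c2_g1 had a log2 difference of 0.81 for Z2T minus H4T, against -4.04 for Z2CK minus H4CK (interaction 4.85, standard error 0.57, adjusted p = 0.0235, and adjusted p = 0.0226 without those 2 libraries). Both were named for a large untreated difference, and the interaction uses the same untreated values, so a smaller difference in water culture was favoured by the choice and the adjusted p is not independent of it. Groups of 3 libraries were not tested for single outlying values.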

How the results depend on the processing

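With all 6 libraries, the count of unigenes called higher in Z2CK (6) became 0 at the study's adjusted p with a log2 difference of 2 or 1 (3056 at an unadjusted p under 0.05), 1 with a pseudocount of 0.01, 0 with no filter (2925 at an unadjusted p under 0.05), 91 with 12 libraries in the fit and 1 over component sums, and the count called lower (2) became 0, 0, 0, 70 and 1. Called lower were also 4 with the filter in 3 libraries, 7 after quantile normalization and 6 with a constant prior variance. Replicate numbers did not pair the libraries (correlations of -0.02, 0.05 and -0.20), and a replicate block gave 0 and 0 calls, with 2724 unigenes at an unadjusted p under 0.05. Leaving out 1 library gave 0 to 1240 higher and 0 to 1052 lower. Without H4CK1, both forms of the study's threshold gave 13 higher and 3 lower, component sums 699 and 532, and 10 libraries in the fit (without H4CK1 and Z2T1) 1968 and 1582. Leaving out a further library gave 106 to 1079 higher and 7 to 900 lower, and with 1 H4CK library left it was assumed to vary like Z2CK. Asking for an FPKM of 1, 5 or 10 in each library left 45, 5 or 3 Z2-only and 40, 2 or 0 H4-only unigenes, and leaving out 1 library gave 120 to 894 Z2-only (894 without H4CK1) and 98 to 692 H4-only unigenes (98 without H4CK2). Leaving out 1 library in turn, 22.5% to 58.9% of Z2-only and 45.9% to 68.8% of H4-only unigenes were above 0 in 2 or more water-cultured libraries of their cultivar (20.7% and 60.7% with 6 libraries), 0.26% to 6.02% of Z2-only and 0.44% to 6.05% of H4-only unigenes stood beside an opposite one (3.0% and 1.76%), 73.5% to 86.1% of Z2-distinct unigenes were above 0 in H4CK1, and 2 to 1167 called graded unigenes kept their sign in water-cultured stems where any was called. The difference in unigenes of at least 1 FPKM ranged over -4265 to 362 and reversed without H4CK1. The adjusted p of the 4 named unigenes reached 0.376 to 0.440 in the alternatives of the 6-library fit, and none reversed. Why a count moved was not tested, beyond fewer libraries or more unigenes by construction. The reads assigned to unigenes are not known, so no limit can be set for a unigene listed at 0.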
